A study of Homo sapiens with 6 samples.

Results

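The mRNAs of the DNA replication machinery were examined in RNA immunoprecipitation sequencing (RIP-seq) libraries of WaGa cells, an established Merkel cell carcinoma (MCC) line that carries Merkel cell polyomavirus. The group was a list of 47 genes matched by gene name in the table of read counts, which holds 60655 genes. Membership follows function, and the list was drawn up with earlier results of these data known. All 47 passed the filter on low counts of edgeR, as did 14507 genes in all. RNA was sequenced from 3 IgG IP libraries (negative control) and 3 IGF2BP3 IP libraries, for which the sample labels use the older protein name IMP3. The cells of both groups were wild type and untreated, so the antibody was the only labelled difference. Replicates carried the numbers 1 to 3 in both groups and are described as independent, without a statement that they came from separate cultures, so the p-values measure the spread between these libraries. The comparison asks which RNAs came down with IGF2BP3 beyond the RNA that comes down with a control antibody. No library of input RNA was analysed here. Each value is a share of the RNA recovered in its IP, and each library is a bulk measurement in which fewer cells of a kind and less RNA per cell cannot be told apart.

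IGF2BP3 is an RNA-binding protein of oncofetal expression that binds mRNAs and affects their stability and translation. Replication origins are marked by the origin recognition complex (ORC1 to ORC6), which, with CDC6 and CDT1, loads the ring-shaped MCM helicase (MCM2 to MCM7) onto DNA. In S phase, the kinase CDC7 with its activator DBF4, and TOPBP1, MCM10, CDC45 and the GINS complex turn the helicase on. DNA polymerase alpha-primase then starts new strands, polymerases epsilon and delta extend them with the PCNA clamp and its RFC loader, RPA covers exposed single-stranded DNA, and FEN1 and LIG1 join the Okazaki fragments. Many of these genes, though not all, are transcribed together in dividing cells.

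The libraries held 9758759 to 14886414 counts on genes. Within the IgG IP and within the IGF2BP3 IP, replicate 1 stood apart. Chi-square values, divided by their degrees of freedom, were 18.2 to 21.9 for library pairs that included replicate 1, against 2.2 and 3.25 between replicates 2 and 3. Of 10 markers of an MCC line, 9 were present at 443 counts or more in every library, and *NEUROD1* had 0 to 2 counts. Of 5 fibroblast markers, *DCN* had 479 to 762 counts and the others at most 2. Leukocyte markers reached at most 4 counts and endothelial markers at most 8.

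No replication mRNA passed the test for enrichment in the IGF2BP3 IP. The thresholds were a 1.5-fold difference or more and an adjusted p under 0.05 (edgeR quasi-likelihood test, adjusted by Benjamini-Hochberg over all tested RNAs). With them 0 of 47 were enriched and 0 were lower, where 1.16% of all tested RNAs (169) were enriched and 0% were lower. DESeq2 also called 0 in either direction. With shares this low, 0 calls among 47 do not set the members apart from other RNAs. At an unadjusted p under 0.05, edgeR gave 2 higher members, *POLD1* and *POLD2*, and 1 lower member, *ORC2*, beside 9.72% and 3.1% of all tested RNAs, and DESeq2 gave 2 and 1. The lowest adjusted p was 0.276, for *POLD1*. As a reference point, for *HMGA1*, a chromatin protein gene that the study followed as an IGF2BP3 target, the log2 fold change was 1.54 ± 0.12 (SE, adjusted p = 0.00503). *GAPDH* stood at 0.66 ± 0.20 (SE, adjusted p = 0.206, or 2.14e-09 with the replicate number as a block).

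The log2 fold changes of the 47 mRNAs (IGF2BP3 IP over IgG IP) ran from -0.24 for *ORC2* to 0.42 for *POLD2*, with a median of -0.03 beside -0.01 for all tested RNAs. A total of 22 lay above 0 and 25 below, against 7091 and 7416 of all tested RNAs. For 43 of 47 members the 95% confidence interval lay wholly within 1.5-fold in both directions, an outcome found in 53.7% of all tested RNAs. The exceptions were *POLD1*, *POLD2*, *CDT1* and *MCM3*, whose upper bounds exceeded 1.5-fold. The lower bound stayed above a 1.5-fold decrease in all 47. The precision differed between members, with standard errors from 0.07 for *TOPBP1* to 0.25 for *CDT1*. Their median standard error was 0.11, against 0.16 for all tested RNAs, and narrower intervals more easily lie within 1.5-fold. The share among RNAs with like counts was not computed.

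**Figure D1:**
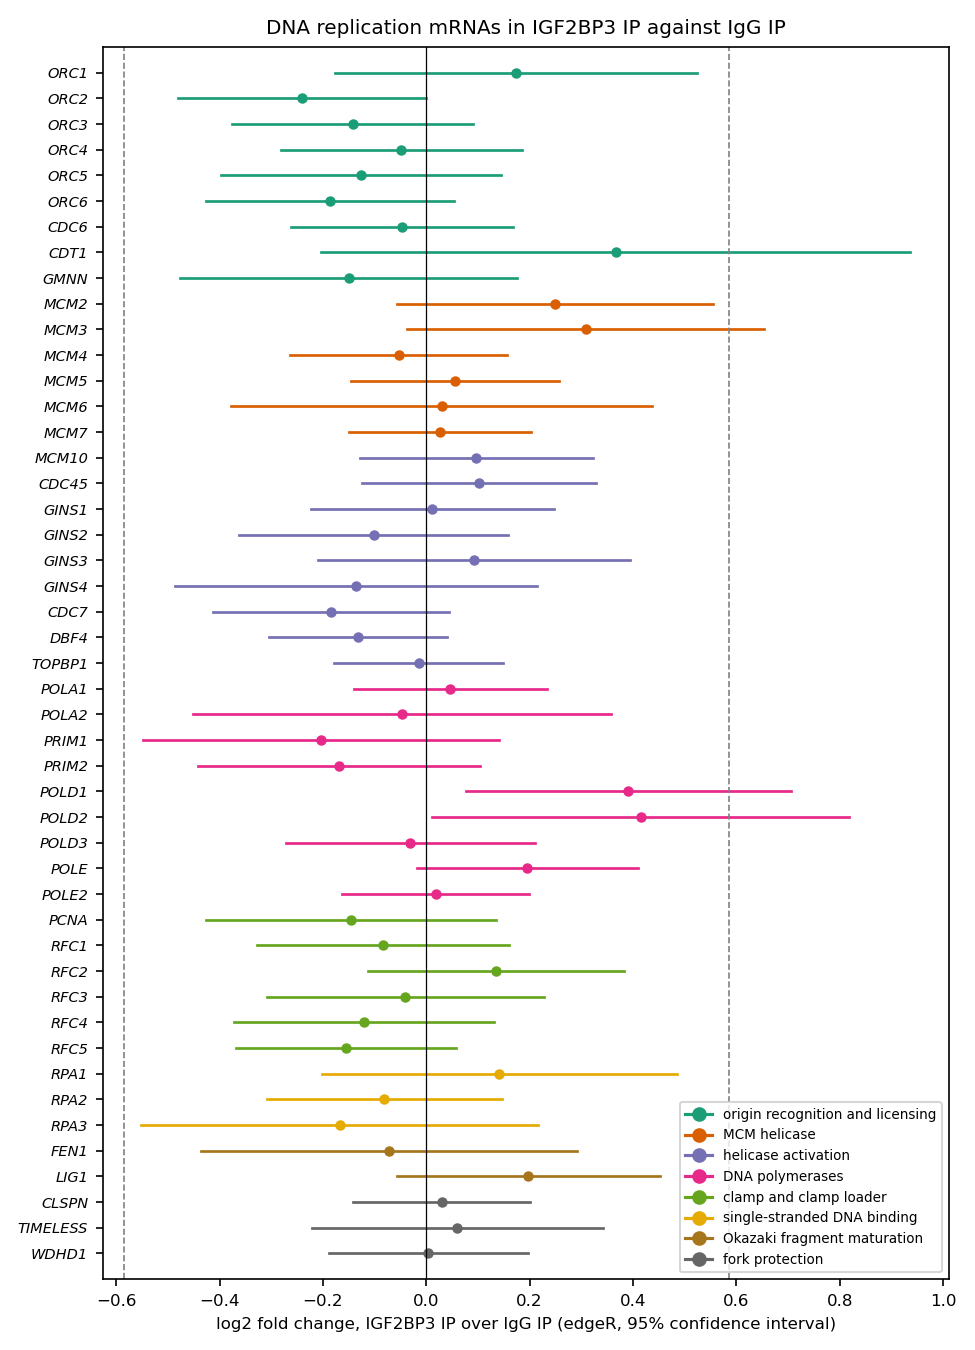
Log2 fold change of each of the 47 mRNAs (x axis, IGF2BP3 IP over IgG IP, edgeR, 3 libraries in each group) with its 95% confidence interval, coloured by role. Dashed lines mark a 1.5-fold change in either direction, and only the intervals of *POLD1*, *POLD2*, *CDT1* and *MCM3* cross one of them.

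Libraries of the same replicate number were taken as pairs, although they are not stated to share a lysate. Deviations from group means correlated 0.568 between the replicate 1 libraries. For replicates 2 and 3, same-numbered libraries (0.277 and 0.231) correlated no more than cross pairs (0.277 and 0.269), so their matching is arbitrary. With the number as a block, 3.56% of all tested RNAs were enriched and 0.103% lower at the same thresholds (edgeR). Of the members 0 were called in either direction, which with such shares does not set them apart. At an unadjusted p under 0.05, this fit gave 9 higher and 11 lower members, beside 16.6% and 12.6% of all tested RNAs. DESeq2 with the block also called 0 and 0. Without a fold change minimum, the block fit gave 5 members higher and 5 lower at an adjusted p under 0.05, beside 10.9% and 5.23% of all tested RNAs. The higher members were *POLD2*, *POLD1*, *CDT1*, *MCM3* and *MCM2*, and the lower ones were *ORC2*, *PRIM1*, *ORC6*, *PRIM2* and *PCNA*. All of these differences were under 1.5-fold. At the same cut-off, DESeq2 with the block gave 2 members higher and 1 lower, where 1037 of all RNAs passed in either direction. The edgeR fit with replicate 1 as a term gave 6 and 7, where 2680 passed. Which members pass without a fold change minimum thus depends on the fit. With replicate 1 left out of both groups the block was not used, and 3 members were higher and 0 lower without a fold change minimum, beside 7.85% and 1.66% of the RNAs tested in that fit.

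Among the polymerase genes, *POLD1* and *POLD2* gave the largest values toward the IGF2BP3 IP. They encode the catalytic subunit and the B subunit of polymerase delta, which synthesizes the lagging strand. *POLD2* (ENSG00000106628.12; GRCh38 chromosome 7, 44114631 to 44124358, minus strand, 11 exons) had 41.8, 27.8 and 33.9 CPM (counts normalized to library size by TMM; replicates in the order 1 to 3 throughout) with IgG and 56.2, 41.1 and 40.2 CPM in the IGF2BP3 IP. The groups overlapped, since IgG IP replicate 1 exceeded IGF2BP3 IP replicates 2 and 3, yet each IGF2BP3 IP library lay above the IgG IP library of its number. Its log2 fold change was 0.42 ± 0.18 (SE; 95% confidence interval 0.01 to 0.82; adjusted p = 0.374, or 0.00103 with the block). *POLD1* (ENSG00000062822.15; chromosome 19, 50384204 to 50418018, plus strand, 27 exons) had 17.3, 15.1 and 18.2 CPM in the IgG IP and 25.1, 19.6 and 21.7 CPM in the IGF2BP3 IP. Here the lowest IGF2BP3 IP library exceeded the highest IgG IP library (two-sided exact permutation p = 0.10, which is the minimum with 3 against 3). The log2 fold change was 0.39 ± 0.14 (SE; adjusted p = 0.276, or 0.0131 with the block).

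The remaining polymerase genes lay closer to 0 or on the other side. *POLE*, the catalytic subunit of the leading-strand polymerase epsilon, had 50.3, 46.6 and 43.6 CPM in the IgG IP and 56.4, 51.6 and 52.8 CPM in the IGF2BP3 IP, also without overlap, and its log2 fold change was 0.20 (adjusted p = 0.443, or 0.0772 with the block). *POLE* and *POLD1* were the only 2 members whose IGF2BP3 IP libraries all lay above the IgG IP libraries, an order seen in 12% of all tested RNAs. The smaller epsilon subunit *POLE2* (0.02), the delta subunit *POLD3* (-0.03) and the polymerase alpha subunits *POLA1* (0.05) and *POLA2* (-0.05) had log2 fold changes near 0. *POLA2* rested on 61 to 85 counts per library, the fewest of the members, with a confidence interval of -0.45 to 0.36. These values come from counts. With the authors' TPM, scaled for transcript length and depth, log2(TPM + 1) gave 0.44 for *POLA2*, 0.16 for *POLA1*, and 0.11 for *POLE2* and for *POLD3*. The median of all tested RNAs was 0.11 there, and no member had an adjusted p under 0.801 (limma).

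The genes of the primase, which makes the RNA primer for polymerase alpha, had negative values. *PRIM1* (ENSG00000198056.15; chromosome 12, 56730438 to 56752374, minus strand, 13 exons), the catalytic subunit, had 94.1, 70.4 and 68.1 CPM in the IgG IP and 79.5, 60.6 and 61.4 CPM in the IGF2BP3 IP. The groups overlapped through the higher level in both replicate 1 libraries, and the IGF2BP3 IP library was lower within each pair. The log2 fold change was -0.20 ± 0.15 (SE; adjusted p = 0.625, or 0.0398 with the block). *PRIM2*, the large subunit, had 178, 142 and 150 CPM against 161, 126 and 131 CPM, and a log2 fold change of -0.17 (adjusted p = 0.608, or 0.0443 with the block). Its pattern was that of *PRIM1*, with overlapping groups and a lower IGF2BP3 IP library in each pair. *PRIM1* shares 1191 bases of its locus with *NACA* on the same strand, and how the counts treated reads in shared stretches is not stated.

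Of the 9 genes of origin recognition and licensing, 7 had negative log2 fold changes and 2, *CDT1* and *ORC1*, positive ones. *CDT1* (ENSG00000167513.9; chromosome 16, 88803789 to 88809258, plus strand, 10 exons), the licensing factor that brings the MCM ring to origins, had 32.4, 19.3 and 23.3 CPM in the IgG IP and 44.2, 24.2 and 27.6 CPM in the IGF2BP3 IP. Replicate 1 was highest in both groups, which made the groups overlap, and within the pairs the log2 differences were 0.45, 0.33 and 0.25. Its log2 fold change was 0.37 ± 0.25 (SE; 95% confidence interval -0.20 to 0.94; adjusted p = 0.595, or 0.0102 with the block). *GMNN*, whose product geminin inhibits CDT1, had 331, 245 and 221 CPM in the IgG IP and 262, 225 and 231 CPM in the IGF2BP3 IP. These groups overlapped, the third pair ran opposite to the first 2, and the log2 fold change was -0.15 (adjusted p = 0.715).

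*ORC2*, a subunit of the origin recognition complex, had the lowest log2 fold change of the members. *ORC2* (ENSG00000115942.9; chromosome 2, 200908977 to 200963680, minus strand, 18 exons) had 150, 119 and 116 CPM in the IgG IP and 109, 107 and 109 CPM in the IGF2BP3 IP. No IGF2BP3 IP library reached an IgG IP library (two-sided exact permutation p = 0.10), and the gap was widest in replicate 1, with within-pair log2 differences of -0.45, -0.15 and -0.10. The log2 fold change was -0.24 ± 0.11 (SE; 95% confidence interval -0.48 to -0.00076; adjusted p = 0.389, or 0.0204 with the block). *ORC6* (ENSG00000091651.9; chromosome 16, 46689643 to 46698394, plus strand, 7 exons) had 163, 140 and 128 CPM against 132, 131 and 116 CPM. Its groups overlapped, and its log2 fold change was -0.19 ± 0.11 (SE; adjusted p = 0.511, or 0.0447 with the block). The other subunits had log2 fold changes of 0.17 (*ORC1*), -0.14 (*ORC3*), -0.05 (*ORC4*) and -0.13 (*ORC5*), and the loading ATPase *CDC6* had -0.05.

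The 6 subunits of the MCM ring had log2 fold changes from -0.05 to 0.31, and none passed the thresholds. *MCM3* (ENSG00000112118.20; chromosome 6, 52264014 to 52284881, minus strand, 17 exons) had 99.6, 144 and 153 CPM in the IgG IP and 147, 172 and 173 CPM in the IGF2BP3 IP. The groups overlapped, since IGF2BP3 IP replicate 1 fell below IgG IP replicate 3, and the within-pair log2 differences were 0.56, 0.26 and 0.18. Its log2 fold change was 0.31 ± 0.15 (SE; adjusted p = 0.453, or 0.00125 with the block). *MCM2* had 63.7, 76.9 and 81.8 CPM against 72.8, 94.7 and 97.2 CPM, with overlapping groups and a log2 fold change of 0.25 (adjusted p = 0.487, or 0.00998 with the block). *MCM4*, the most abundant of the ring by CPM, had 606, 710 and 705 CPM in the IgG IP and 601, 672 and 675 CPM in the IGF2BP3 IP. These groups overlapped, and the log2 fold change of *MCM4* was -0.05 with a confidence interval of -0.26 to 0.16. *MCM5*, *MCM6* and *MCM7* had 0.06, 0.03 and 0.03. With log2(TPM + 1) these 3 had 0.43, 0.19 and 0.15, beside a median of 0.11 for all tested RNAs. The differences between subunits were not tested.

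Of the 9 genes of helicase activation, 4 lay above 0 and 5 below, and none passed an adjusted p under 0.05 in either fit. *TOPBP1*, a scaffold of origin firing and the most abundant by CPM, had 255, 256 and 251 CPM in the IgG IP and 253, 260 and 241 CPM in the IGF2BP3 IP. The libraries of the 2 groups were interleaved, and the interval of its log2 fold change, -0.18 to 0.15, was among the narrowest. The kinase gene *CDC7* and its activator *DBF4* stood lower without overlap, *CDC7* at 149, 121 and 119 CPM against 116, 117 and 109 CPM and *DBF4* at 142, 141 and 140 CPM against 120, 133 and 132 CPM. With *ORC2* they were the 3 members whose IGF2BP3 IP libraries all lay below the IgG IP, an order seen in 8.69% of all tested RNAs. Their log2 fold changes were -0.18 and -0.13 (adjusted p = 0.496 and 0.519, or 0.0666 and 0.145 with the block). *CDC45* (0.10), *MCM10* (0.10) and the GINS genes (-0.14 to 0.09) completed the group.

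*PCNA* encodes the sliding clamp and was by far the most abundant member. *PCNA* (ENSG00000132646.11; chromosome 20, 5114953 to 5126626, minus strand, 6 exons) had 2890, 2300 and 2260 CPM in the IgG IP and 2560, 2040 and 2130 CPM in the IGF2BP3 IP. Replicate 1 was highest in both groups, the groups overlapped, and the IGF2BP3 IP library was lower in all 3 pairs. The log2 fold change was -0.15 ± 0.12 (SE; adjusted p = 0.673, or 0.0477 with the block). *PCNA* has 3 annotated pseudogenes, which held 0 counts in every library. The loader genes *RFC1*, *RFC3*, *RFC4* and *RFC5* had log2 fold changes of -0.08, -0.04, -0.12 and -0.16, and *RFC2* had 0.14.

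The RPA trimer, which coats single-stranded DNA, and the factors of Okazaki fragment maturation gave small values of either sign. *RPA2* had 164, 145 and 148 CPM in the IgG IP and 163, 135 and 134 CPM in the IGF2BP3 IP, with overlapping groups and a log2 fold change of -0.08. *RPA1* and *RPA3* had 0.14 and -0.17. The flap nuclease gene *FEN1* had 117, 170 and 157 CPM against 114, 150 and 160 CPM, also overlapping, with a log2 fold change of -0.07. *FEN1* overlaps *FADS2* over 4259 bases on the same strand, so its counts are uncertain. For *LIG1*, the ligase that seals the fragments, the log2 fold change was 0.20 (adjusted p = 0.509, or 0.0527 with the block). Of the fork protection genes, *WDHD1*, which ties polymerase alpha to the helicase, had 113, 118 and 132 CPM against 124, 122 and 118 CPM and a log2 fold change of 0.00 (interval -0.19 to 0.20). Its groups overlapped. *CLSPN* and *TIMELESS* had log2 fold changes of 0.03 and 0.06.

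**Figure D2:**
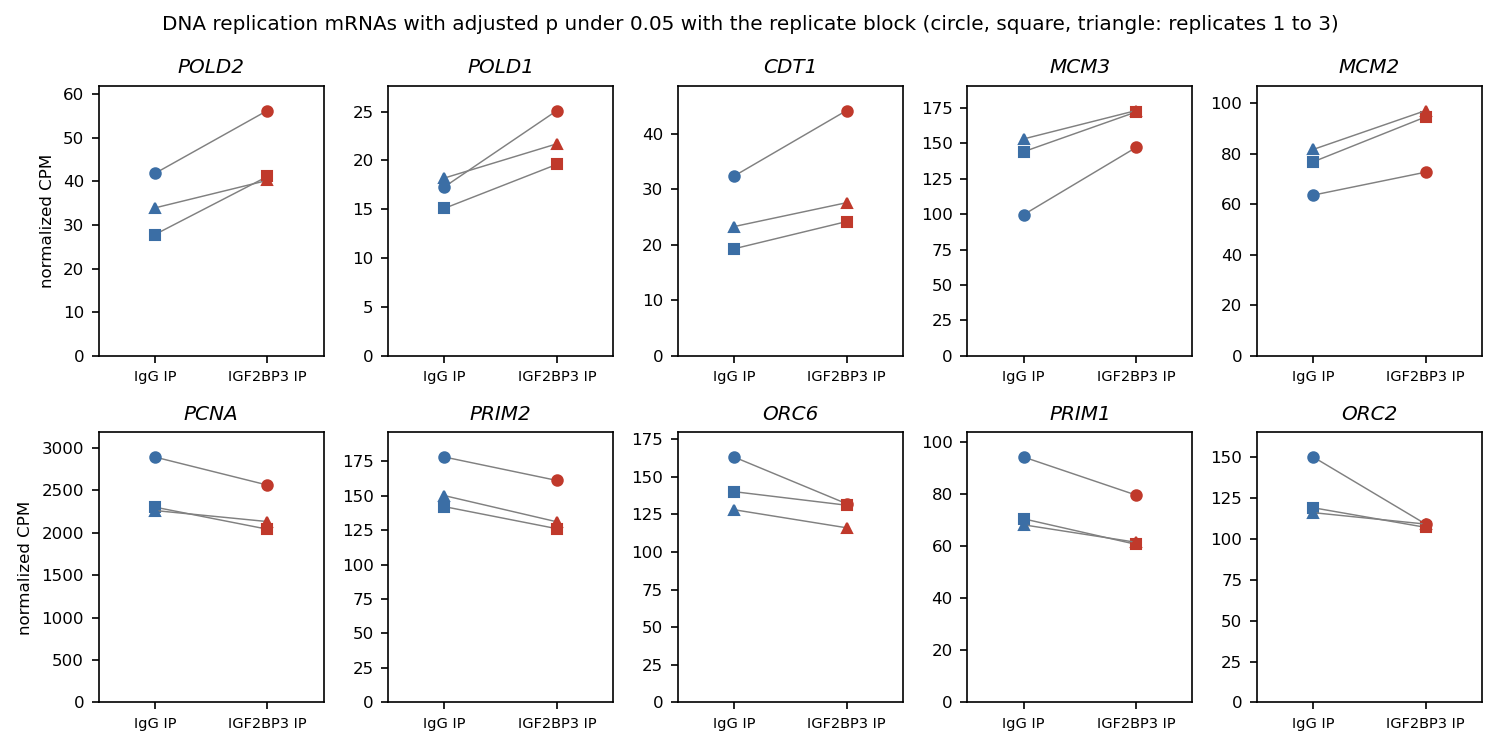
Normalized CPM (y axis, starting at 0) of the 10 mRNAs with an adjusted p under 0.05 in the fit with the replicate block, in the IgG IP (blue) and the IGF2BP3 IP (red). Lines join libraries of the same replicate number (circle 1, square 2, triangle 3). All 3 lines run up in the upper row and down in the lower row, which selection by the block fit favours. The groups overlap for all but *POLD1* and *ORC2*.

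Over the same-numbered pairs, 12 members were higher in the IGF2BP3 IP in 3 of 3 pairs and 15 were lower in 3 of 3. The 12 included *ORC1*, *MCM2*, *MCM3*, *GINS3*, *POLA1*, *RFC2*, *RPA1* and *LIG1*, and the 15 included *ORC3*, *MCM4*, *GINS2*, *RFC3*, *RFC4*, *RFC5*, *RPA2* and *RPA3*. Among all tested RNAs 3635 were higher and 3405 lower in 3 of 3 pairs. The medians of the 47 within-pair log2 differences were 0.01, -0.01 and -0.03.

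Leaving out a single replicate 1 library moved many of these values. Without IGF2BP3 IP replicate 1, *CDT1* had a log2 fold change of 0.06, and without IgG IP replicate 1 it had 0.59, against 0.37 with all libraries. *POLD2* had 0.24 and 0.57 in these settings, *PRIM1* -0.34 and -0.04, *PRIM2* -0.28 and -0.07, and *PCNA* -0.25 and -0.02. Without IgG IP replicate 1, *MCM3* had 0.15, *MCM2* 0.16, *ORC2* -0.11 and *ORC6* -0.08. *POLD1* lay between 0.29 and 0.47 when each of the 6 libraries was left out in turn. The 10 members with an adjusted p under 0.05 in the block fit kept their sign in all 6 of these settings. They were picked on these same libraries, so the kept sign is no separate support for them. Without IgG IP replicate 1, *GMNN* went from -0.15 to 0.04 and *RPA3* from -0.17 to 0.03.

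The sequence context in which IGF2BP proteins have been described to bind RNA, UGGAC, was read in the canonical transcripts (TGGAC in DNA letters, sense strand). In the windows below, 30 bases of the GRCh38 transcript strand are given around the TGGAC nearest the stop codon in a single exon, for the 4 members with the highest and the 3 with the lowest log2 fold changes. Capitals mark the TGGAC.
POLD2: gagatcctggagTGGACcctgcgggtccgt
POLD1: cttcggacccccTGGACctgaggcctggtg
CDT1: tgggggccactgTGGACagacgtgggcttc
MCM3: ttcaggactcggTGGACcctttgggaatgg
ORC6: cagtcatgtgccTGGACcttgcagcttcct
PRIM1: atttgcagaaagTGGACcagtttgatccat
ORC2: taaaataccagcTGGACaaccaggataacc

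The window of *POLD2* lies at chr7:44115797-44115826 on the minus strand, in the coding part of exon 9 of 11, and that of *POLD1* at chr19:50417917-50417946 on the plus strand, in the coding part of exon 27 of 27. The windows of *CDT1* (chr16:88808282-88808311, plus strand, exon 10 of 10) and *MCM3* (chr6:52264415-52264444, minus strand, exon 17 of 17) lie in the 3' UTR. Those of *ORC6* (chr16:46691068-46691097, plus strand, exon 2 of 7), *PRIM1* (chr12:56739313-56739342, minus strand, exon 10 of 13) and *ORC2* (chr2:200913943-200913972, minus strand, exon 16 of 18) are coding. The motif was thus present in members at both ends of the range, with 3 matches in the transcript of *POLD2*, 10 in *POLD1*, 4 in *CDT1*, 6 in *MCM3*, 3 in *ORC6*, 3 in *PRIM1* and 1 in *ORC2*. At least 1 TGGAC was found in 93.6% of the 47 transcripts and in 94.2% of 11817 other tested protein-coding genes, where *GMNN*, *RFC2* and *RFC4* had 0. Per kilobase the median was 1.5 in the members and 1.12 in the others. The letters CATA, CATC and CATT, which spell another described binding context of the family, occurred 11.2 and 10.8 times per kilobase in the median. A match is a description of the letters and not a binding site.

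Transcript features were set beside those of other genes as medians, with no test and with wide ranges that overlapped. The members' median length was 3120 bases against 3490 in the other tested protein-coding genes, their 3' UTRs were 980 against 1400 bases, and they had 14 against 9 exons. GC content was 44.8% against 47.8% in the median and ranged from 37.4% in *ORC4* to 64.8% in *POLD1*. Across the 47 members, the log2 fold change was higher at higher GC content (Pearson r = 0.75, Spearman rho = 0.62), as it did across 11864 tested protein-coding genes (r = 0.44, rho = 0.49). Genes are not independent replicates, and these points share the 6 libraries. The members with the highest values, *POLD2*, *POLD1* and *CDT1*, had 59.4%, 64.8% and 64.3% GC, and the lowest, *ORC2*, *PRIM1* and *ORC6*, had 40%, 39.6% and 45.9%.

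With a correction of each library for transcript GC content, the log2 fold changes were 0.26 for *POLD2*, 0.20 for *POLD1*, 0.17 for *CDT1* and 0.13 for *MCM2*, all lower than without it, while *MCM3* had 0.28 beside 0.31. *ORC2*, *PRIM1* and *PCNA* had -0.13, -0.08 and -0.07. The correction takes out the trend with GC content over all genes, so by design it tends to lower GC-rich members and raise GC-poor ones. With the correction and the block together, 2 members, *MCM3* (adjusted p = 0.00244) and *POLD2* (adjusted p = 0.0351), passed without a fold change minimum and 0 were lower, beside 9.72% and 2.11% of the RNAs in that fit. Without the correction, the log2 of transcript length (r = 0.19 across members) and TGGAC per kilobase (r = 0.42) had lower correlations with the fold change than GC content. With the correction, r across members was 0.262 for GC content, 0.315 for log2 length and 0.149 for TGGAC per kilobase. Differences between these correlations were not tested. Whether GC content accounts for the differences was not tested.

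**Figure D3:**
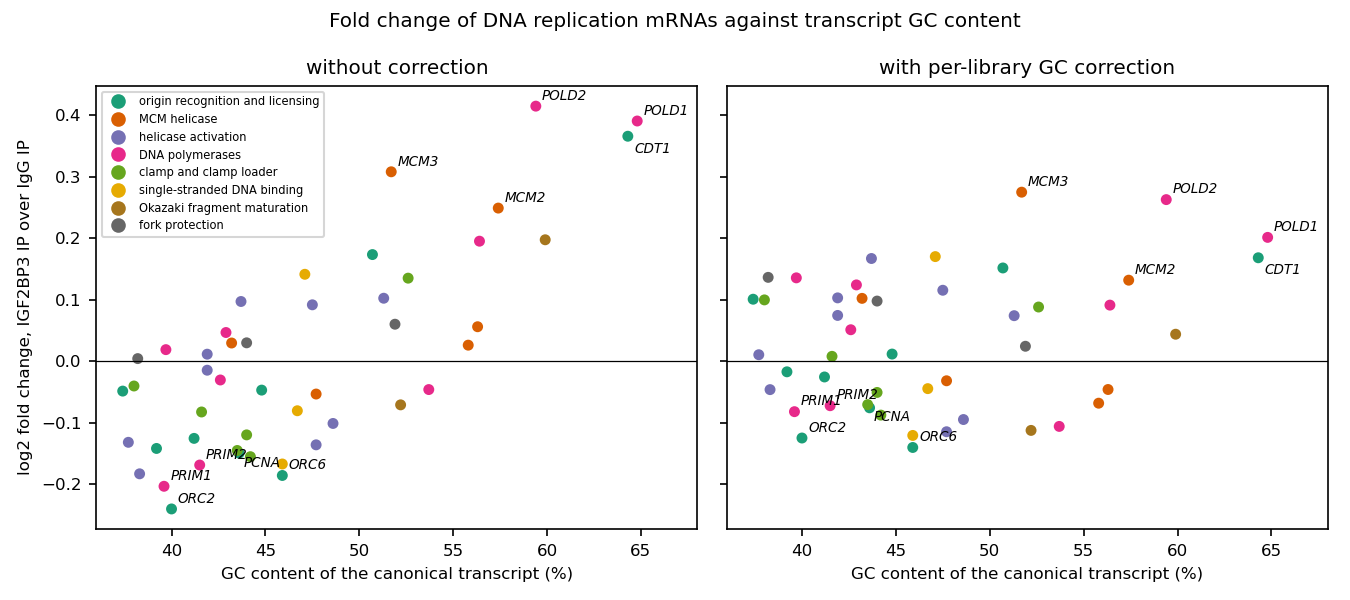
Log2 fold change (y axis) of the 47 mRNAs against the GC content of the canonical transcript in percent (x axis), without (left) and with (right) a per-library GC correction, coloured by role. Labelled points are the 10 members with an adjusted p under 0.05 in the block fit. The GC-rich members *POLD1*, *POLD2* and *CDT1* lie less far above 0 on the right, which the correction tends to bring about by design.

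Levels between genes were compared per transcript length with the TPM values of the authors, which are scaled for transcript length and depth. In the IgG IP the TPM of the members ran from 7.45 ± 1.31 (SD, n = 3) for *POLD1* to 2560 ± 187 (SD, n = 3) for *PCNA*, which ranked 41 among the 14507 tested RNAs. *MCM4* (398 ± 136, SD, n = 3) and *GMNN* (294 ± 14.3, SD, n = 3) followed, and the spread of *MCM4* reached *GMNN*. At the low end *TIMELESS* (8.57 ± 2.37 TPM, SD, n = 3) and *GINS4* (8.77 ± 1.88 TPM, SD, n = 3) could not be told apart from *POLD1* by their spread. The 47 mRNAs made up 0.745% to 0.804% of all counts in a library, and *PCNA* alone 27.7% to 33.9% of that share.

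Subunits that assemble in equal number differed in mRNA level among the RNA recovered in the IPs. Levels in the cells were not measured, since no input RNA was analysed. *MCM4* exceeded *MCM2* in TPM 11.5 to 17.7 times in the 6 libraries, although the ring holds both in equal number, and 5.87 to 8.04 times by counts per base of the canonical transcript. *RFC4* exceeded the large loader subunit *RFC1* 5.13 to 10.3 times, *PRIM1* exceeded *POLA1* 4.09 to 6.78 times, and *POLE2* exceeded *POLE* 2.81 to 5.11 times. By counts per base these 3 ratios were 7.79 to 12.4, 2.75 to 4.88 and 6.74 to 8.49, so their size depends on the quantification. *GMNN* exceeded *CDT1* 15.1 to 33.2 times in TPM and 12.5 to 26.8 times by counts per base, with the lowest TPM ratio in replicate 1 of each group. *RPA3* exceeded *RPA1* 3.51 to 8.01 times in TPM and 2.36 to 5.89 times by counts per base, but the locus of *RPA3* overlaps *UMAD1* on the other strand. The ranges of the TPM ratios overlapped between the IgG IP and the IGF2BP3 IP. By counts per base, some ratios were lower in all 3 IGF2BP3 IP libraries than in any IgG IP library. These were *MCM4* to *MCM2*, *POLE2* to *POLE* and *GMNN* to *CDT1*, and the ranges of the other ratios overlapped. They use the same counts as the fold changes above, which were positive for *MCM2*, *POLE* and *CDT1*, so they are no separate result. How often other gene pairs separate was not computed, and these differences were not tested. Counts and TPM also differed for *MCM4*, whose counts were 0.607 times those its TPM and canonical length imply, relative to the median gene, and the gap was widest for *POLA2*, where this value was 0.197 and a readthrough gene spans the locus on the same strand.

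**Figure D4:**
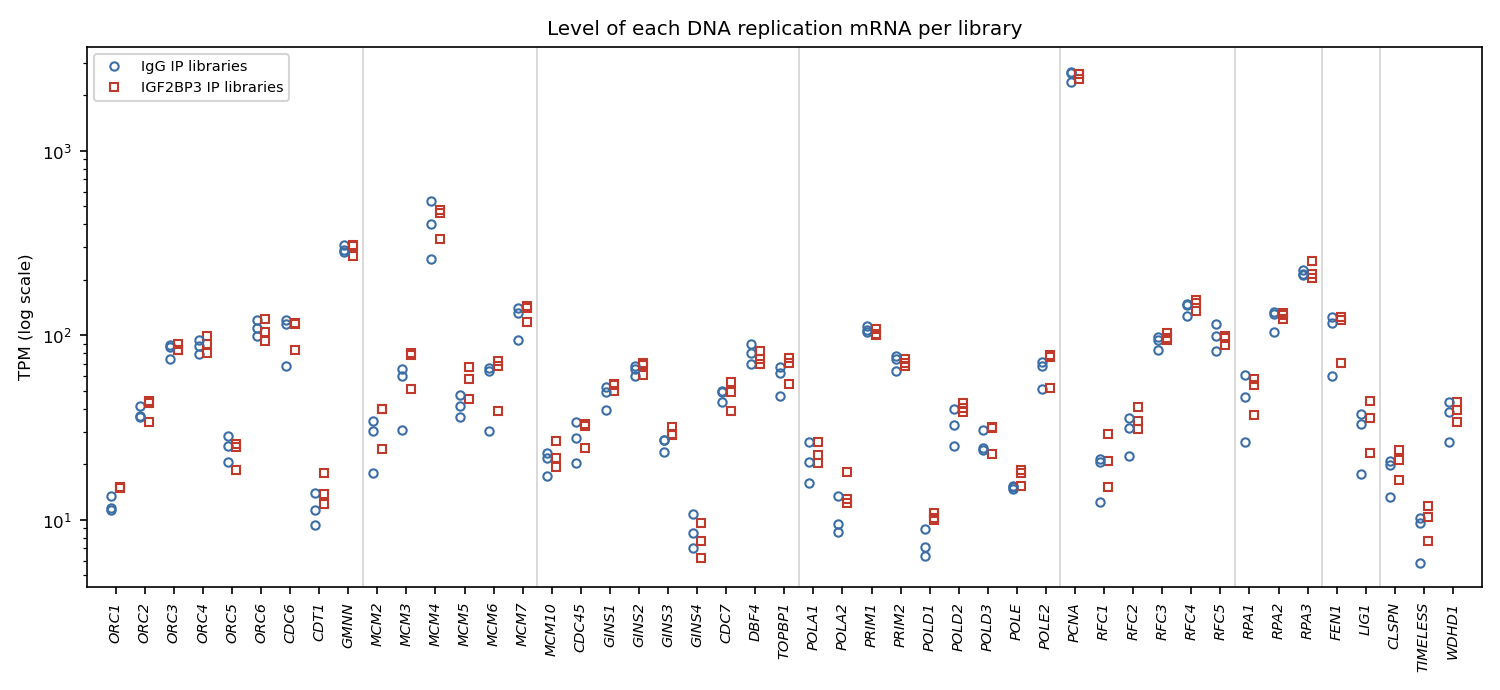
TPM of each of the 47 mRNAs (y axis, log scale) in the 3 IgG IP libraries (blue circles) and the 3 IGF2BP3 IP libraries (red squares), in the order of their roles, which grey lines separate. *PCNA* stands above all others, and the libraries of the 2 groups lie close together for each gene compared with the distance between genes.

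Many of these mRNAs differed between replicate 1 and replicates 2 and 3. With condition as a term, 20 of 47 were higher and 9 lower in replicate 1 at an adjusted p under 0.05 (edgeR), where 14% and 17.2% of all tested RNAs were higher and lower. *CDT1* was 0.70 higher on the log2 scale (adjusted p = 5.84e-07), and it was the only member past 1.5-fold. *RPA3* (0.48), *POLD2* (0.46), *PRIM1* (0.41), *ORC1* (0.38), *GMNN* (0.36) and *PCNA* (0.32) were also higher. *MCM6* (-0.54), *FEN1* (-0.46), *RPA1* (-0.41), *MCM3* (-0.39), *MCM2* (-0.36) and *MCM4* (-0.19) were lower. Thus 4 of the 6 MCM mRNAs were lower in replicate 1, and *MCM5* (0.14, adjusted p = 0.126) and *MCM7* (0.05, adjusted p = 0.586) did not pass. Across members this difference fell with the log2 of transcript length (Pearson r = -0.42, Spearman rho = -0.50, n = 47). Across 11864 protein-coding genes r was -0.30. The labels do not say what set the replicates apart, and the part of RNA quality was not tested.

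**Figure D5:**
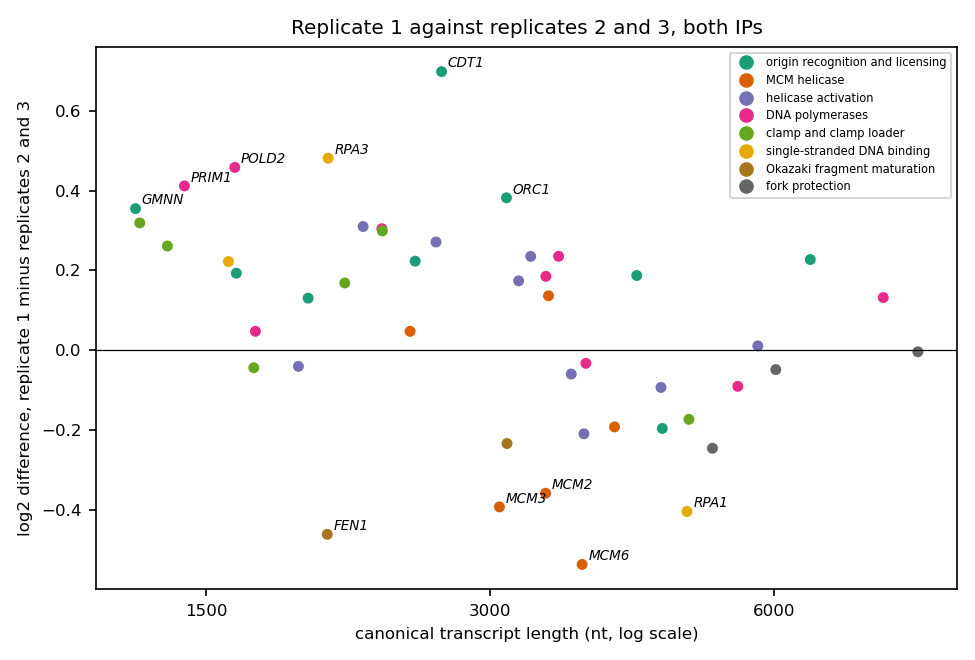
Log2 difference between replicate 1 and replicates 2 and 3 over both IPs (y axis) of the 47 mRNAs against canonical transcript length in bases (x axis, log scale), coloured by role. Labelled mRNAs differ by over 0.35, with *CDT1* at 0.70 and *MCM6* at -0.54 at the ends.

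Other genes of replication and the cell cycle did not pass the thresholds either. Of all tested RNAs, 1.16% were enriched and 0% lower at these thresholds with edgeR, or 3.56% and 0.103% with the block. With shares this low, 0 calls in short lists do not set these genes apart from other RNAs. Of 29 other replisome and origin factors, 28 were tested (*TEN1* was below the filter) and 0 were past the thresholds in either direction with edgeR, with the block or with DESeq2, and edgeR gave 3 higher and 0 lower at an unadjusted p under 0.05, where the shares of all tested RNAs were 9.72% and 3.1%. Their extremes were *CHTF18*, a subunit of an alternative clamp loader, at 0.66 (adjusted p = 0.293, 24 to 51 counts) and the small delta subunit *POLD4* at -0.89 (adjusted p = 0.48, 6 to 18 counts). Without a fold change minimum, the block fit gave *SUPT16H*, *TICRR* and *RECQL4* as higher, with log2 fold changes of 0.23, 0.33 and 0.39, and 0 as lower, beside 10.9% and 5.23% of all tested RNAs. The same thresholds called 0 of 11 genes of deoxynucleotide supply (*TK1* 0.30 to *CMPK1* -0.19), 0 of 8 of topoisomerases and chromatin assembly (*ASF1B* 0.17 to *ASF1A* -0.25), 0 of 10 of the replication checkpoint (*HUS1* 0.23 to *ETAA1* -0.17) and 0 of 24 of mitosis (*CDC20* 0.34 to *MAD2L1* -0.19). At an unadjusted p under 0.05, edgeR gave 0 higher and 1 lower, 0 and 1, 0 and 0, and 2 and 0 in these 4 lists, beside the same 9.72% and 3.1%. The block fit without a fold change minimum gave *CMPK1* and *ASF1A* as lower, *CDC20* and *ESPL1* as higher and *MAD2L1* as lower, with log2 fold changes of -0.19, -0.25, 0.35, 0.33 and -0.18, and 0 genes of the checkpoint. Their median log2 fold changes were -0.09, -0.08, -0.11 and -0.08, and that of the other replisome factors was -0.02.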

How the data were processed

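RIP-seq was performed by the authors in WaGa cells with IGF2BP3 or IgG antibody and sequenced as 150 bp paired-end reads. Per the submitters' processing notes, STAR 2.7.9a, RSEM and GRCh38 were used, and the methods name GENCODE version 37. The authors deposited whole-number counts per gene without normalization (the program and its use of strand are not given in the sources used here), with TPM and FPKM values per gene, normalized for length and depth, which are RSEM estimates. FPKM served only for effective lengths.

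Counts were tested with edgeR 4.0.16 (R 4.3.3; filterByExpr, TMM, quasi-likelihood, condition as the only term), with Benjamini-Hochberg adjustment over 14507 genes. Standard errors derive from the F statistic. Alternatives were DESeq2 1.42.0, limma 3.58.1 (voom, or trend on log2(TPM + 1) and log2(TPM + 0.1)), RLE or no TMM factors, other filters, GC and length corrections (loess, span 0.5), a replicate block and leaving out libraries. Same-numbered libraries were taken as pairs. Deviations from group means correlated 0.568, 0.277 and 0.231 within them, and 0.277 and 0.269 in cross pairs of replicates 2 and 3. These values match the replicate 1 libraries to each other but cannot tell how replicates 2 and 3 pair. Canonical transcripts came from GENCODE version 44, which holds 60437 of the 60655 identifiers. Members and lists were chosen with earlier results of these data known. Named in every library were the 3 highest and 3 lowest fold changes, members past the thresholds, and the most abundant member of each role; *MCM2*, *MCM3*, *POLE*, *CDC7* and *DBF4* were added after their values were seen, as were the fits with replicate 1 as a term or left out. The edgeR (also with the block or GC correction), DESeq2 and limma fits were tested on simulated data without a replicate effect; the TPM values and the length correction were not simulated. Counting error sets the precision of low counts.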

Additional observations from a re-analysis of the deposited data

How the results depend on the processing

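The number of members enriched in the IGF2BP3 IP, and of members lower, was 0 under the alternatives run at the same thresholds, with or without the replicate block (0 of 987 values passed). The block with no fold change minimum, added after the data were seen, gave 5 members higher and 5 lower with edgeR, and 2 and 1 with DESeq2. The median log2 fold change of the members was 0.0122 with library totals, 0.13 with log2(TPM + 1) and 0.14 with log2(TPM + 0.1), where the medians of all tested RNAs were 0.03, 0.11 and 0.13. It was 0.0242 after correction for GC content, 0.0262 when the block was added to that, and -0.0416 to 0.012 when each library was left out in turn. Since the median lies close to 0, these shifts change its sign, and relative to all tested RNAs it stayed between -0.03 and 0.02. In single members the sign changed in 16 of 47 with TPM, 11 without IgG IP replicate 1 and 9 with the GC correction, where the largest value without the change in setting was 0.24 in size (*ORC2*, with TPM). The number of enriched RNAs among all tested ran from 0 (without IGF2BP3 IP replicate 2, or with TPM) to 537 (replicate 1 as a term), against 169. Leaving out replicate 3 or replicate 2 of the IgG IP gave 7 and 19, and leaving out IGF2BP3 IP replicate 3 gave 23. The cause of these changes was not tested. Members with few counts, such as *POLA2* (61 to 85 counts), allow differences up to their interval.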
